A study of Mus musculus with 17 samples.

Results

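Broad BRG1 peaks are here the postnatal day 12 (P12) BRG1 peaks on chromosomes 1 to 19 that are at least 2500 bp wide. Of the 18630 peaks in the authors' P12 list, 770 met this rule, and 17566 peaks on the same chromosomes were narrower. A further 4 peaks of that width lay on chromosome X and were left out. The members were chosen by their width alone, so widths are given as a description.

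BRG1 was precipitated from spermatogenic cells of wild type CD1 mice at P12 and at postnatal day 18 (P18), with 2 ChIP libraries and 2 input libraries at each age. Acetylation of histone H3 at lysine 27 (H3K27ac) was mapped at P12 in Brg1WT and Brg1cKO cells of mixed strain background, with 2 libraries per genotype and 1 shared input. In Brg1cKO mice the gene for BRG1 was removed with Mvh-cre, a Cre driven by a promoter active in germ cells, so other cells of the testis keep it. The cells were released from testes by enzyme digestion and passed through a sieve, and the labels name no sorting step. Region lists carry no expression values, so the labelled cell type was not checked against markers.

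BRG1 is a catalytic subunit of SWI/SNF chromatin remodelling complexes and uses ATP to slide or evict nucleosomes and so exposes DNA at promoters and enhancers. H3K27ac is placed on nucleosomes beside active promoters and enhancers. Male germ cells that lack BRG1 are known to arrest in meiosis. A wide peak in a ChIP list can be 1 long stretch of binding or several sites that the peak caller has joined.

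Each list was deposited as 1 merged list for both libraries of a group, so no value below has an error between replicates, and the lists do not show how deeply each library was read. Regions are not replicates of an age or a genotype, and the differences below were not tested. Each interval printed beside a share is an exact Clopper-Pearson 95% interval and reflects only how many peaks were counted. Strength is the deposited −log10 q value of a peak, as the authors' peak caller wrote it. Coordinates are in build mm9 and counted from 1. Genes and sequences of that build were not used here.

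The 770 broad peaks were 4.20% of the P12 peaks on chromosomes 1 to 19 and held 15.0% of the length in peaks, 2.66 of 17.7 Mb. Their widths ran from 2502 to 12006 bp, with a median of 3099.5 bp, and 90% of them were at most 4708 bp wide. The median width of the narrower peaks was 751 bp. Broad peaks were of middling strength. Their median −log10 q was 4.76, with a range of 1.73 to 12.3, against a median of 4.00 and a range of 1.34 to 18.2 for narrower peaks. The strongest peak of the list was thus a narrower one. By width, the median strength was highest, at 5.17, in peaks of 1500 to 1999 bp, and it was 4.65 in the 161 peaks of 4000 bp and more.

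Gaps between peaks in the list had a lower limit. No 2 P12 peaks lay closer together than 717 bp, and no 2 P18 peaks closer than 718 bp, whereas common H3K27ac regions came as close as 101 bp. Whether enrichment at shorter spacing was joined into broad peaks was not tested. Among the broad peaks, 61 carried the name of another peak of the list, as did 484 of the 17566 narrower peaks, and each of the 266 repeated names had a single −log10 q value for all the peaks that carried it. Such peaks may be pieces of 1 call, so that their width, −log10 q and nearest neighbour may not be those of a separate peak. Without them, 709 broad peaks remained, of which 81.1% overlapped H3K27ac, 32.9% a P18 peak and 55.9% had another P12 peak within 10 kb.

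The width of 2500 bp cuts through a continuous range. The 5 members closest to it were 2502, 2505, 2506, 2509 and 2509 bp wide, with −log10 q values between 3.08 and 5.99. Of these, 4 overlapped an H3K27ac region and 2 a P18 peak. The 5 widest peaks outside the rule were between 2490 and 2498 bp wide, with −log10 q values between 2.15 and 4.65. There, 2 overlapped an H3K27ac region and none a P18 peak.

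The widest peaks each spanned several H3K27ac regions with bare stretches between them. The widest of all, chr5:143574417-143586422, was 12006 bp wide, with a −log10 q of 6.40. It overlapped 10 common H3K27ac regions, the most of any broad peak, which covered 48.2% of it. Its longest stretch without H3K27ac was 1237 bp, and it held no P18 peak, the nearest one lying 81.6 kb away. The second, chr11:118942293-118953035 (10743 bp, −log10 q 4.91), overlapped 7 regions over 37.6% of its length and also held no P18 peak. The third, chr11:74978312-74987649 (9338 bp, −log10 q 6.57), overlapped 6 regions over 31.6% of its length and held 2 P18 peaks that covered 9.22% of it.

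Acetylation of these wide stretches differed from one to the next. The next pair in width, chr2:104966306-104974838 and chr11:120091330-120099507, overlapped 4 regions each, over 14.0% and 13.1% of their length. Their longest bare stretches were 3865 and 3363 bp, and neither held a P18 peak. By contrast, the eighth, chr11:98797398-98804885 (7488 bp, −log10 q 4.37), overlapped 8 regions over 63.6% of its length, and its longest bare stretch was 648 bp. All 10 of the widest overlapped H3K27ac, with between 4 and 10 regions each, and 5 of the 10 held at least 1 P18 peak. The other members of the 10 were chr10:80265433-80273474, chr11:4957658-4965677, chr8:86721189-86728256 and chr12:81210571-81217282.

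**Figure D1:**
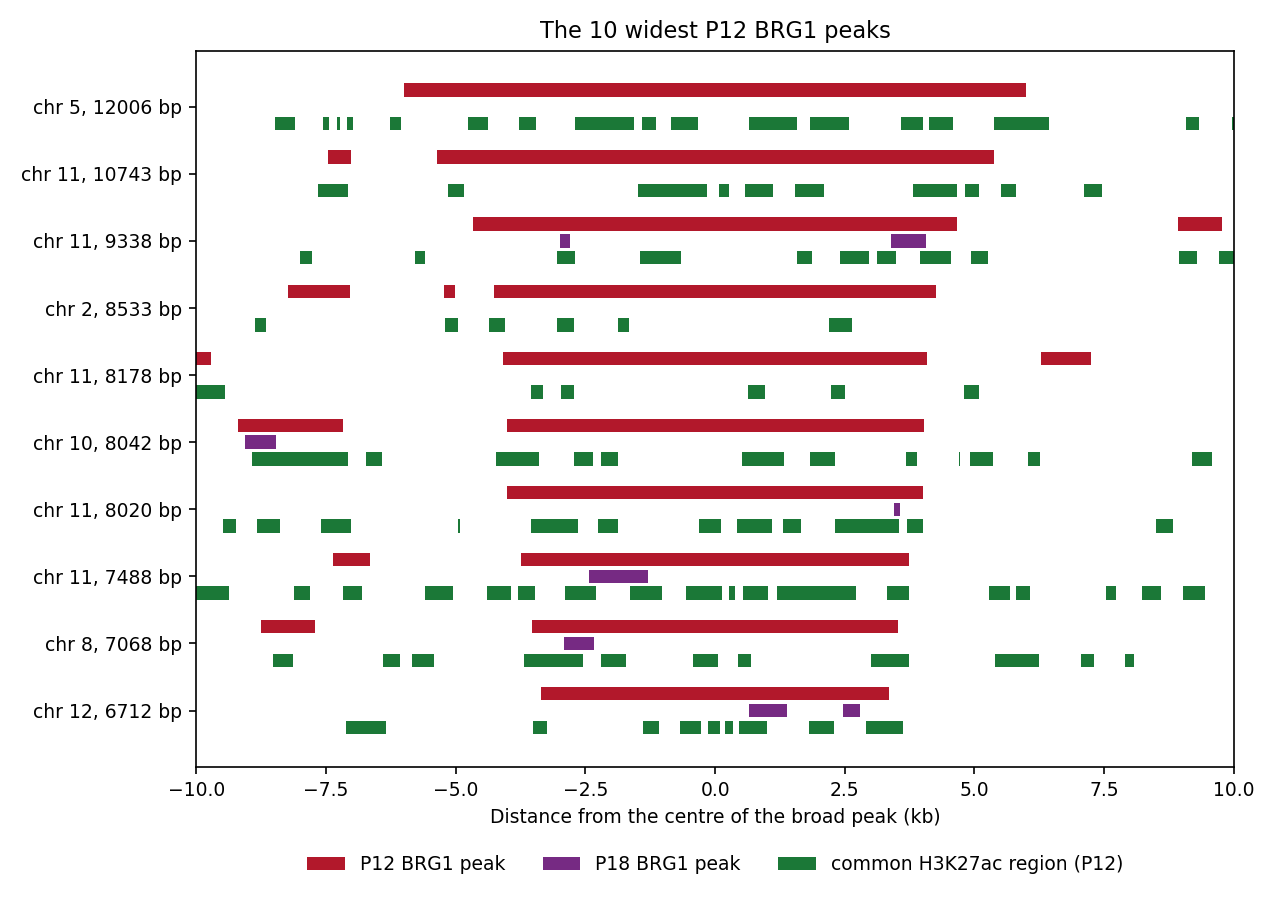
Maps of the 10 widest P12 BRG1 peaks, aligned at their centres, with the distance from the centre in kb on the x axis and 1 row per peak, named by chromosome and width. Red bars are P12 BRG1 peaks, purple bars P18 BRG1 peaks and green bars common H3K27ac regions. Each wide peak spans 4 to 10 separate H3K27ac regions, and P18 peaks, where present, cover a small part of it.

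Most broad peaks lay on H3K27ac, yet H3K27ac covered less than 30% of their length. A common H3K27ac region, one that the authors classed as present in both genotypes, was overlapped by at least 1 bp in 625 of 770 broad peaks (81.2%, 95% interval 78.2 to 83.9). Where gained or lost regions are not named, H3K27ac here means common regions. The share was 58.8% over all 18336 P12 peaks of these chromosomes and 57.9% (57.1 to 58.6) over narrower ones. A wider peak has more length with which to meet a region. Over the summed length, H3K27ac covered 28.2% of broad peaks and 31.3% of narrower peaks. Regions per kb of peak numbered 0.639 in broad and 0.898 in narrower peaks. A region cut by an edge counts in full here, which raises the value in short peaks. It was 1.32 below 500 bp and 0.613 at 4000 bp and more. Of the overlapped regions, 82.3% lay wholly inside broad peaks and 49.5% wholly inside narrower ones.

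When each peak was reduced to its central 500 bp, broad peaks no longer lay on H3K27ac more often. Of the broad peaks, 395 (51.3%, 47.7 to 54.9) had H3K27ac in this window, against 53.2% (52.4 to 53.9) of narrower peaks and 53.1% of all. The window reaches beyond the edges of peaks narrower than 500 bp. H3K27ac covered 29.6% of the window in broad and 31.4% in narrower peaks. Among width classes, this central coverage was highest at 36.2% in peaks of 1000 to 1499 bp. It was 34.2% in peaks of 2000 bp up to 2500 bp, 29.9% at 2500 to 2999 bp, 30.1% at 3000 to 3999 bp and 28.1% at 4000 bp and more.

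**Figure D2:**
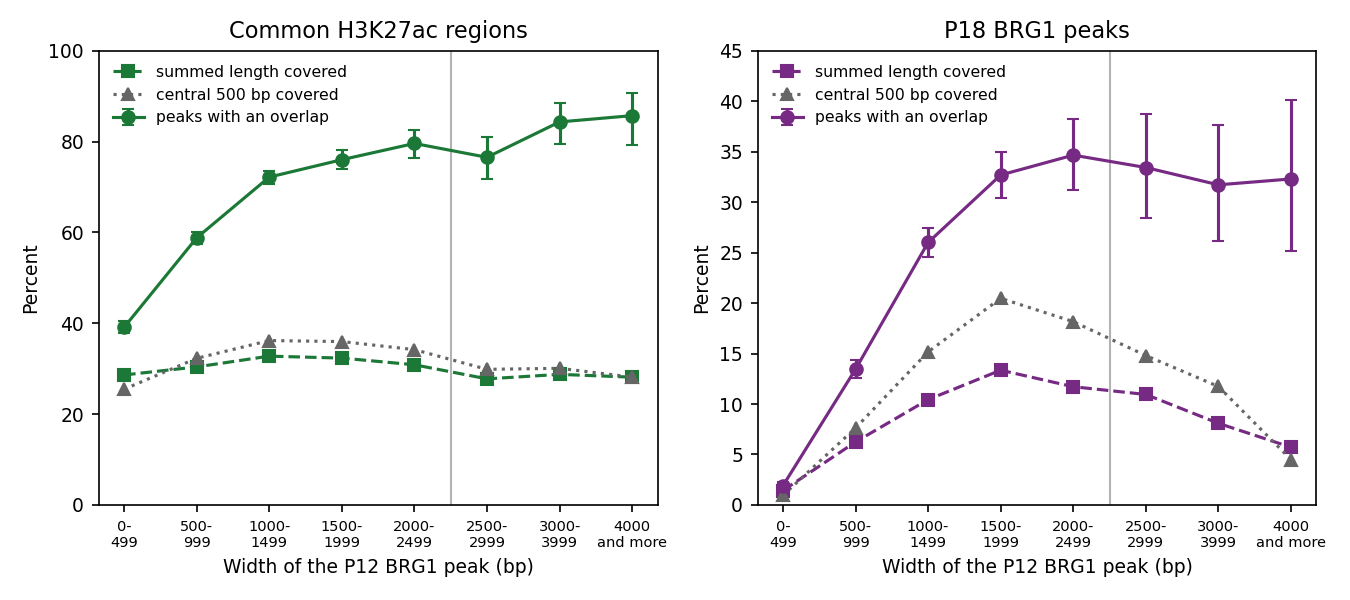
Overlap of P12 BRG1 peaks with common H3K27ac regions (left) and P18 BRG1 peaks (right) in 8 classes of peak width in bp (x axis); the y axis is in percent. Circles show the share of peaks with an overlap, with exact 95% intervals, squares the share of summed length covered and triangles the share of the central 500 bp covered, and the grey line marks 2500 bp. The share of peaks on H3K27ac is 39.1% below 500 bp and 85.7% at 4000 bp and more, while the covered length stays between 27.8% and 32.8%.

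The number of H3K27ac regions varied widely among the broad peaks. No common region was overlapped by 145 of them, 1 by 135, 2 by 162, 3 by 169 and 4 by 100, and the remaining 59 overlapped 5 to 10. At least 2 regions were held by 490 broad peaks (63.6%, 60.1 to 67.0), against 16.0% of narrower peaks. The share of length on H3K27ac ran from 0 to 100%, with a median of 26.3% and quartiles of 8.40% and 43.9%. In narrower peaks the median was 22.1% and the quartiles 0 and 55.8%, so the medians are ordered unlike the summed lengths. Among peaks with H3K27ac, the median was 32.3% in broad and 50.4% in narrower peaks. At least 50% of the length was covered in 139 broad peaks (18.1%), against 29.2% of narrower ones.

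Single H3K27ac regions were about as wide in broad as in narrower peaks, but lay further apart. The 1697 regions that broad peaks overlapped had a median width of 373 bp, against 383 bp for those in narrower peaks and 266 bp for regions off every P12 peak. Between neighbouring regions of the same peak, the median gap was 369.5 bp in broad peaks (1072 gaps, quartiles 176.75 and 755 bp) and 238 bp in narrower peaks (3303 gaps). Regions far apart can only share a peak that is wide, so the width rule favours long gaps. The longest stretch without H3K27ac had a median of 1531 bp, or 44.9% of the peak. In 408 broad peaks (53.0%) H3K27ac was present and a bare stretch of at least 1000 bp remained. In 158 of the 625 broad peaks on H3K27ac (25.3%), all of it lay on 1 side of the peak centre. Bare stretches and sides were not measured in narrower peaks, so these values have no reference. Peaks below 1000 bp cannot hold a bare stretch of 1000 bp.

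The extremes show how different the members are. In 2 broad peaks, 1 H3K27ac region covered the whole peak. They were chr7:7250684-7253549 (2866 bp, −log10 q 6.10) and chr6:51418832-51421357 (2526 bp, −log10 q 10.8), and P18 peaks covered 32.1% and 84.4% of them. The next in order of H3K27ac cover were chr12:110030374-110032984 (87.2%), chr1:183140151-183142841 (85.5%) and chr13:58502330-58504949 (84.9%). Of these 5 peaks, 4 also held a P18 peak.

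At the other end, 145 broad peaks, among them chr2:25993667-25996511 with a region lost in Brg1cKO, overlapped no common H3K27ac region. Their median width was 2929 bp and their median −log10 q 3.80, against 3149 bp and 4.99 for the 625 on H3K27ac. The nearest common region lay at a median of 5350 bp, against 2615.5 bp for the 7402 narrower peaks without one. It lay within 1 kb in 22 of the 145 and in 2128 of the 7402. The widest of the 145, chr5:108150167-108156104, was 5938 bp wide, with a −log10 q of 3.17, and lay 18.9 kb from H3K27ac. The next 4 were between 5174 and 5742 bp wide, with −log10 q values of 3.29 to 3.75. They were chr2:180623999-180629740 and chr2:119147752-119153008, chr11:98186483-98191747 and chr8:94879544-94884717. Only the first of these 4 held a P18 peak, which covered 7.0% of it.

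Acetylation went with strength among the broad peaks, as it did among narrower ones. With broad peaks split by −log10 q into 4 groups of 192 or 193, the share on H3K27ac was 63.7% (56.5 to 70.5) in the weakest group, then 77.1% and 86.5%, and 97.4% (94.0 to 99.1) in the strongest. The covered share of summed length was 15.4%, 22.2%, 31.2% and 44.5% in the same order. The median widths of the 4 groups were 3019, 3160, 3202 and 3024 bp, so the groups differed little in width. The strongest broad peak, chr17:84584646-84588654 (4009 bp, −log10 q 12.3), was covered by H3K27ac over 80.4% of its length. In the 5 strongest, the covered share was between 50.1% and 80.4%, and each held a P18 peak.

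Broad and narrower peaks were then set side by side at like strength, with the peaks of chromosomes 1 to 19 ranked by −log10 q and split into 10 bins. Bins 3 to 10 held at least 20 broad peaks each. In all 8 of them the share of peaks on H3K27ac was higher for broad than for narrower peaks, while the share of length covered was lower for broad peaks in 7. Among bins 3 to 10, the gap in covered length was widest in bin 4, where H3K27ac covered 12.8% of the length of broad peaks. In this bin it covered 12.4% of the central 500 bp of broad and 20.8% of narrower peaks. Regions per kb numbered 0.364 and 0.678, a measure that is raised in short peaks by regions cut at an edge. In bin 10 the shares of length were 51.6% and 51.0%. At a given strength, broad peaks thus met H3K27ac more often over their whole width, which gives them more length to meet it. In most bins less of their length was covered, and in 7 of the 8 their central 500 bp met H3K27ac less often.

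**Figure D3:**
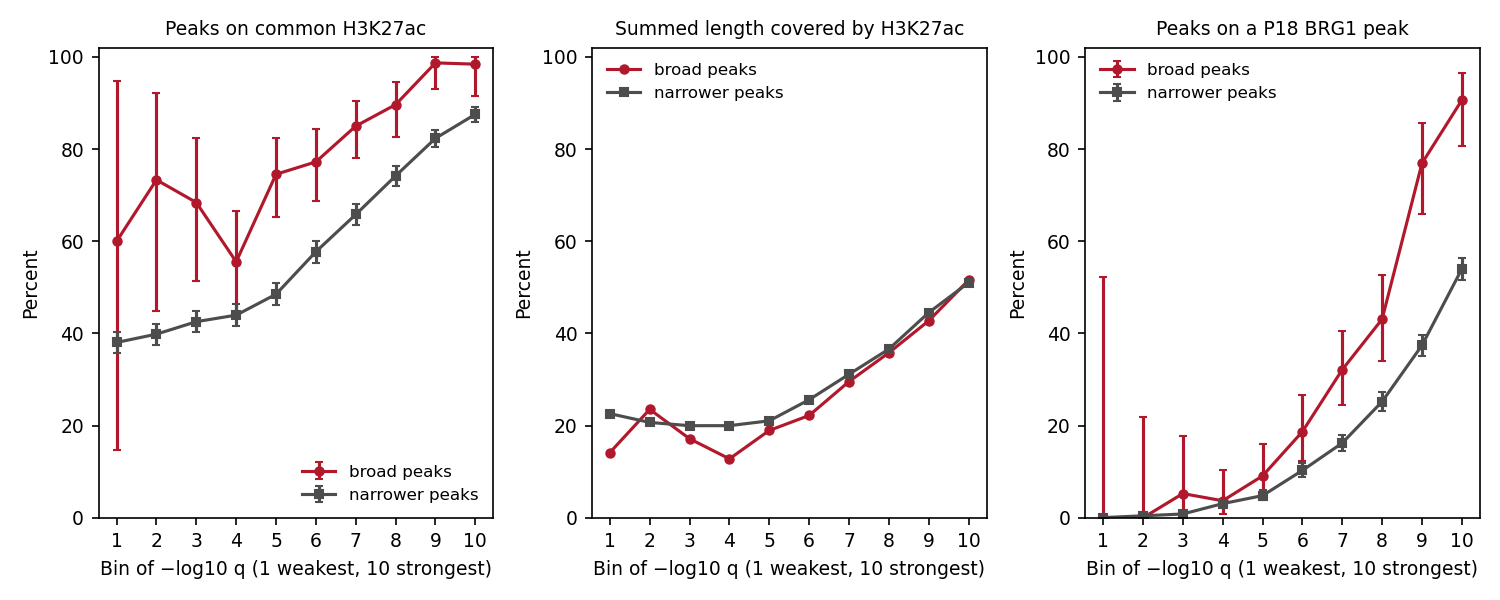
Broad (red circles) and narrower (grey squares) P12 BRG1 peaks in 10 bins of −log10 q from weakest to strongest (x axis); the y axis is in percent. The panels show the share of peaks on common H3K27ac, the summed length covered by H3K27ac, and the share of peaks on a P18 BRG1 peak, with exact 95% intervals on shares of peaks. Broad peaks lie above narrower ones in the outer panels from bin 3 on, while the covered length of broad peaks is lower in bins 3 to 9. Bins 1 and 2 hold 5 and 15 broad peaks.

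P18 BRG1 peaks lay in a minority of the broad peaks. The authors' P18 list was much shorter, with 3020 peaks against 18630 at P12, which limits how many P12 peaks can overlap one. Of the 3020 P18 peaks, 65 overlapped no P12 peak. Of the 770 broad peaks, 251 (32.6%, 29.3 to 36.0) overlapped a P18 peak, against 15.9% of all P12 peaks and 15.1% (14.6 to 15.7) of narrower ones. A single P18 peak was held by 221, a pair by 29 and 3 P18 peaks by 1. Over the summed length, P18 peaks covered 8.36% of broad and 8.89% of narrower peaks. This order turned in the central 500 bp, of which P18 peaks covered 11.6% in broad and 8.74% in narrower peaks. It also turned when peaks from 2000 bp counted as broad, at 9.62% and 8.55% of the length. The central 500 bp met a P18 peak in 16.4% (13.8 to 19.2) of broad peaks, 14.0% (13.5 to 14.5) of narrower peaks and 14.1% of all. The share of peaks with a P18 peak did not go on climbing with width. It was 34.7% at 2000 bp up to 2500 bp, 33.4% at 2500 to 2999 bp, 31.7% at 3000 to 3999 bp and 32.3% at 4000 bp and more, with overlapping intervals. The covered share of length was 11.7%, 10.9%, 8.09% and 5.71% in the same classes.

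Where a P18 peak was present, it usually marked a small part of the broad peak. It covered a median of 20.4% of the broad peak, with a range of 0.332% to 92.2%, against a median of 38.4% in narrower peaks. Of the 282 P18 peaks in broad peaks, 276 lay wholly inside. Their median width was 611.5 bp and their median −log10 q 2.25, against 423 bp and 2.44 for the 2673 P18 peaks in narrower peaks. The highest −log10 q of a P18 peak was 5.23 in broad and 8.0 in narrower peaks. With only P18 peaks of a −log10 q of at least 3, 4.94% of broad and 3.57% of narrower peaks overlapped one, and the covered length was 1.13% and 2.28%.

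P18 peaks lay further off centre in broad than in narrower peaks, although in both most lay nearer to the centre than to an edge. Their centres lay a median of 634.75 bp from the centre of the broad peak, or 37.9% of the way from the centre to the edge, against 24.4% in narrower peaks. In broad peaks 36.2% of them lay nearer to an edge than to the centre, against 18.4% in narrower peaks. A P18 peak that fills more of its P12 peak has less room to lie off centre, and no correction was made for this. The peaks most fully covered at P18 were short ones. They were chr12:110030374-110032984 (92.2%) and chr12:77469923-77472549 (87.6%), chr5:149862713-149865281 (85.6%) and chr5:25003362-25006017 (85.4%), and chr2:72816691-72819287 (85.1%). All 5 were between 2569 and 2656 bp wide and overlapped H3K27ac.

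The part of a broad peak that was also called at P18 was more fully acetylated than the rest of the same peak. In the 251 broad peaks with a P18 peak, H3K27ac covered 57.0% of the length inside P18 peaks and 34.3% of the length outside them. The inside was the more covered part in 172 of these peaks, the outside in 65, and both were equal in 14. In narrower peaks with a P18 peak the values were 56.7% inside and 39.2% outside. Acetylation was mapped at P12 alone, so these values set P12 acetylation beside P18 binding.

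Broad peaks found again at P18 were mostly strong ones. In the 4 groups by strength, the share with a P18 peak was 5.70% (2.88 to 9.97), 14.6%, 32.6% and 77.6% (71.0 to 83.3) from weakest to strongest. In bins 9 and 10 of all P12 peaks, 76.9% (66.0 to 85.7) and 90.6% (80.7 to 96.5) of broad peaks had a P18 peak, against 37.4% and 54.0% of narrower ones. In these bins P18 peaks also covered more of the central 500 bp, at 34.4% and 50.8% in broad and 21.6% and 35.4% in narrower peaks. In bins 3 to 8 this central cover was lower in broad peaks in 4 and higher in 2.

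By both marks, the largest class of broad peaks had common H3K27ac and no P18 peak, with 386 members (50.1%). Another 239 (31.0%) had both, 133 (17.3%) neither and 12 (1.56%) a P18 peak without common H3K27ac. Among narrower peaks the shares were 44.7%, 13.2%, 40.2% and 1.97%. The median −log10 q was 6.41 in the broad peaks with both, 4.36 with H3K27ac alone and 3.79 with neither. Broad peaks with both were covered by H3K27ac over a median of 41.1%, against 26.3% for those with H3K27ac alone. In the 12 with a P18 peak alone, it covered between 0.332% and 16.4% of the peak. Common H3K27ac lay 0.236 to 19.4 kb away from these 12, and within 1 kb of 3. The member at 0.236 kb, chr2:25993667-25996511, held a 1254 bp H3K27ac region that was lost in Brg1cKO.

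Summed over all broad peaks, H3K27ac cover differed less between centre and edge than in narrower peaks of at least 1000 bp, although single broad peaks held the long bare stretches given above. With each peak divided into 20 steps, the summed cover in the outermost steps was 23.6% and 24.8%, and the highest value was 33.3%, at 32.5% of the width. In narrower peaks of at least 1000 bp the cover went from 24.2% and 23.4% at the edges to 36.5% just past the centre. P18 peaks covered 1.37% and 1.41% of the outermost steps of broad peaks and between 8.82% and 12.5% of every step from 22.5% to 82.5% of the width. In narrower peaks of at least 1000 bp, P18 cover reached 18.5% at the centre.

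Beyond the edges, H3K27ac dropped within the first 500 bp. It covered 11.2% of bases within 0.5 kb of a broad peak and 8.05% from 0.5 to 1 kb, against 12.7% and 7.94% around narrower peaks. From 0.5 kb outwards the cover was higher around broad peaks. From 1 to 2 kb it was 8.30% around broad and 7.02% around narrower peaks. From 2 to 5 kb the cover was 9.17% around broad and 6.81% around narrower peaks, from 5 to 10 kb 8.89% and 6.53%, and from 20 to 50 kb 7.44% and 6.01%. Within 50 kb of a broad peak lay a median of 21 common H3K27ac regions outside it, against 16 for narrower peaks.

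**Figure D4:**
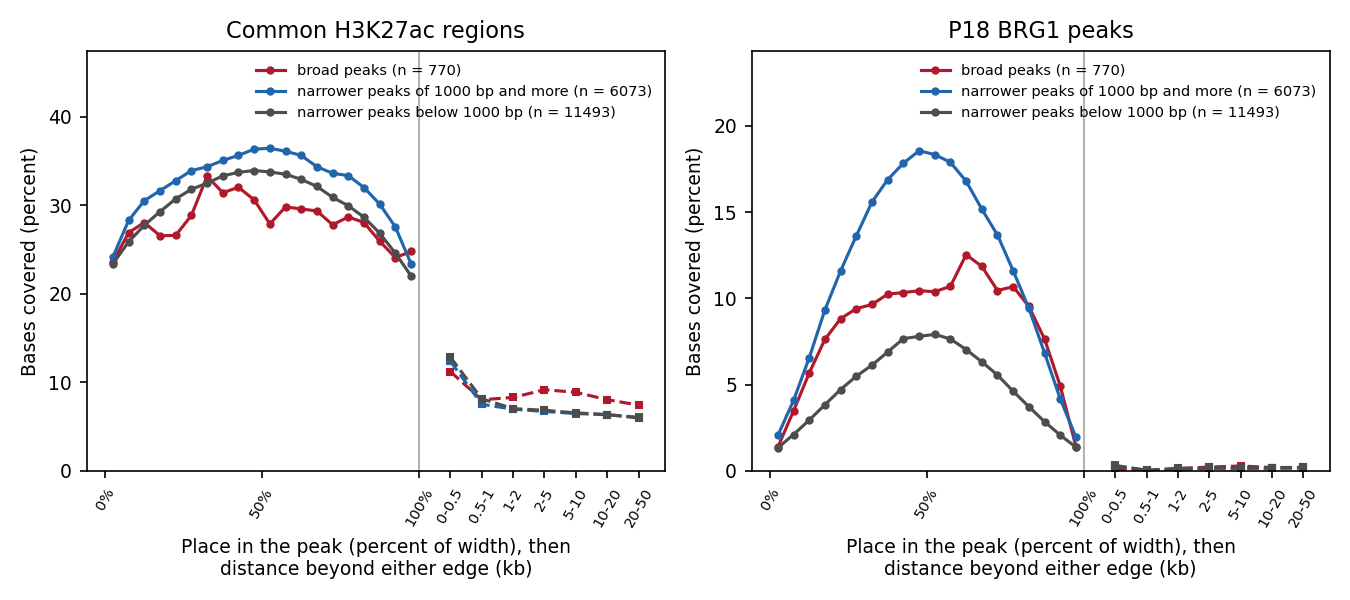
Bases covered by common H3K27ac regions (left) and P18 BRG1 peaks (right), in percent, along P12 BRG1 peaks scaled to the same width (solid lines, 20 steps) and beyond both edges pooled (dashed lines, kb). Red marks broad peaks, blue narrower peaks of 1000 bp and more, and grey peaks below 1000 bp. Summed cover by H3K27ac lies between 23.6% and 33.3% in broad peaks, and is higher around them from 1 kb outwards.

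Other BRG1 peaks lay closer to broad than to narrower peaks. A median of 3 other P12 peaks stood within 50 kb of a broad peak and 2 within 50 kb of a narrower one, with means of 4.36 and 2.91. Another P12 peak stood within 10 kb of 457 broad peaks (59.4%, 55.8 to 62.8), measured from edge to edge, against 40.3% of all P12 peaks and 39.4% (38.7 to 40.2) of narrower ones. The gap to the nearest other P12 peak was between 0.717 and 3715 kb, with a median of 6.61 kb, against a median of 16.2 kb for narrower peaks. In all 10 bins of strength the share with a neighbour within 10 kb was higher for broad peaks. Other P12 peaks covered 7.59% of the bases from 2 to 5 kb beyond the edges of broad peaks and 3.53% around narrower peaks. From 20 to 50 kb the values were 4.34% and 2.78%.

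The neighbours of broad peaks were mostly narrower peaks, as were most peaks of the list. The nearest neighbour was itself broad for 6.36% of broad and 4.33% of narrower peaks, while 4.20% of all P12 peaks were broad. Among neighbours within 10 kb, 9.41% and 6.44% were broad. The nearest neighbours of broad peaks had a median width of 701 bp and a median −log10 q of 3.39, against 757 bp and 3.97 for the nearest neighbours of narrower peaks. Among neighbours within 10 kb, the median −log10 q was 3.37 for broad and 3.41 for narrower peaks. Of the neighbours within 10 kb, 54.3% overlapped H3K27ac, close to the 55.6% for narrower peaks. In 56 of 770 broad peaks and 438 of 17566 narrower peaks, the nearest neighbour carried the same name and may belong to the same call. With peaks that share a name left out, 55.9% of broad and 37.7% of narrower peaks had a neighbour within 10 kb. Weak peaks had near neighbours more often than strong ones, among broad and narrower peaks alike. The share of broad peaks with another peak within 10 kb was 69.4%, 67.2%, 63.7% and 37.0% from the weakest to the strongest of the 4 groups. For narrower peaks it was 51.9% in bin 1 of strength and 19.1% in bin 10.

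**Figure D5:**
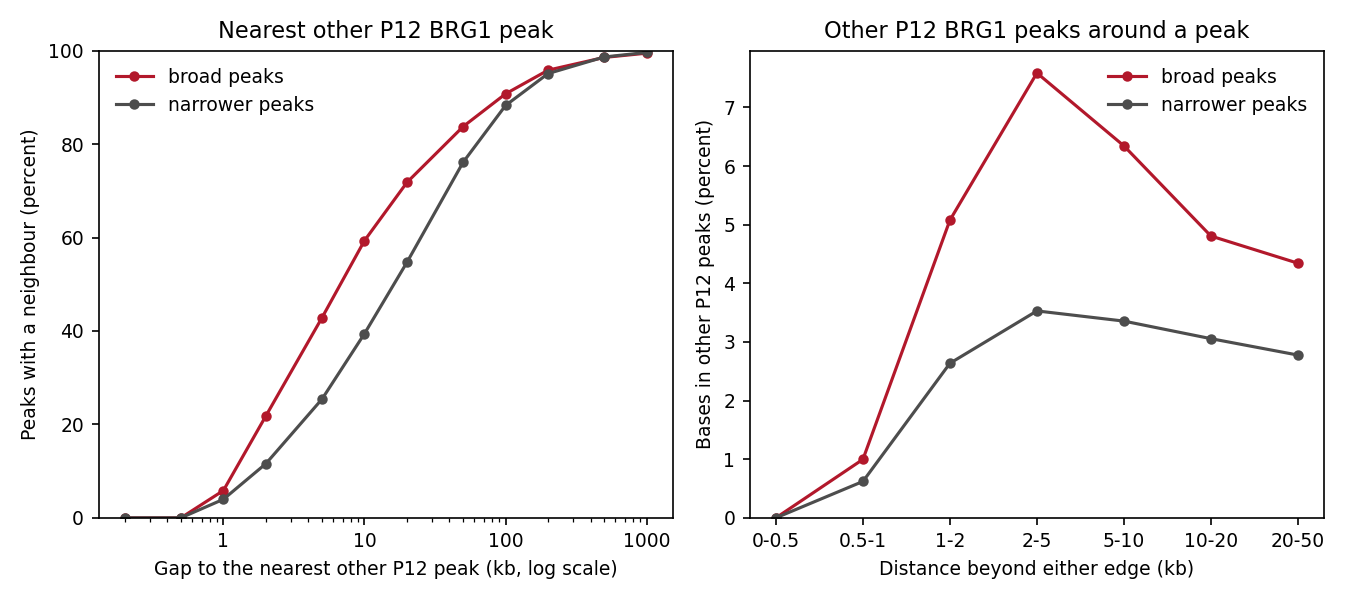
Left, share of P12 BRG1 peaks with another P12 peak within a given gap (x axis, kb, log scale); right, percent of bases in other P12 peaks at distances beyond both edges (kb). Red marks the 770 broad and grey the 17566 narrower peaks. Within 10 kb, 59.4% of broad and 39.4% of narrower peaks have a neighbour, and the curves meet beyond 200 kb.

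Broad peaks also lay near each other. Another broad peak stood within 50 kb of 192 of them (24.9%, 21.9 to 28.1), against 13.3% (12.8 to 13.8) of narrower peaks and 13.8% of all. The median gap from a broad peak to the nearest other broad peak was 319 kb. Linked at 50 kb, the 770 peaks formed 578 single peaks, 50 pairs, 14 triplets and 11 chains of 4 to 7. The longest chain, chr10:79563588-79636191, held 7 broad peaks within 72.6 kb, between 3304 and 6354 bp wide, and 12 P12 peaks in all. Of its 7 broad peaks, 6 overlapped H3K27ac and 2 a P18 peak. The next chain, of 6 broad peaks, was chr10:79315780-79453824, and a chain of 5 was chr7:52240908-52332959. In the 11 chains of 4 and more, between 0 and 2 broad peaks of each overlapped a P18 peak.

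The 5 closest pairs of broad peaks stood 0.737 to 1.344 kb apart. The peaks chr7:152123822-152126332 and chr7:152127070-152129597 were 0.737 kb apart. The peaks chr7:52301322-52305864 and chr7:52306609-52310159 were 0.744 kb apart, and their −log10 q values were 2.55 and 5.84. The third pair, chr5:109979240-109982638 and chr5:109983471-109986734, was 0.832 kb apart. The fourth pair, chr9:62991947-62994950 and chr9:62996237-62999051, had no H3K27ac in either peak. The last of the 5 closest pairs, chr15:76346761-76350590 and chr15:76351935-76354476, shared a −log10 q of 4.27. None of the 10 peaks of these pairs held a P18 peak.

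H3K27ac regions that differed between Brg1WT and Brg1cKO seldom lay at broad peaks. A region gained or lost in Brg1cKO lay within 1 kb of 8 broad peaks (1.04%, 0.450 to 2.04), against 0.442% of all P12 peaks and 0.416% (0.326 to 0.522) of narrower ones. Of the 8, 4 had a gained and 4 a lost region (0.519% each), against 0.169% and 0.273% of all P12 peaks. Chromosome 15 held 4 of the 8, and without it the share was 0.545%. Within 10 kb the shares were 2.86% (1.80 to 4.29) for broad and 2.70% (2.46 to 2.95) for narrower peaks.

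Inside their edges, 3 broad peaks (0.390%, 0.0804 to 1.13) overlapped a lost region, against 0.0436% of all P12 peaks. A gained region was overlapped by 2 (0.260%, 0.0315 to 0.935), against 0.0709% of all. Broad peaks had more length with which to meet a region, with a mean width of 3449 bp against 963 bp over all P12 peaks. The same holds for the shares within 1 kb. The lost region chr2:25995196-25996449 was 1254 bp wide and lay wholly in the 2845 bp broad peak chr2:25993667-25996511. That peak had a −log10 q of 6.20, overlapped a P18 peak and no common H3K27ac region, and lay 0.236 kb from one. The other lost regions were 200 bp wide, in the peak chr11:69613626-69618810, and 195 bp wide with 28 bp of overlap, in the peak chr1:88336329-88341109. Both of these peaks also held common H3K27ac and a P18 peak. The gained regions were 8 and 203 bp wide, in peaks chr15:89010438-89013275 and chr17:48110688-48113277. Those 2 peaks held common H3K27ac and no P18 peak.

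Every autosome held broad peaks. Their share of the P12 peaks of a chromosome ran from 2.41% (1.46 to 3.74) on chromosome 3, with 19, to 5.63% (3.97 to 7.70) on chromosome 19, with 36. Chromosome 11 held the most, 85 of 1606 peaks (5.29%). The share of broad peaks on H3K27ac was between 68.1% on chromosome 2 and 89.3% on chromosome 7. The share with another P12 peak within 10 kb varied more, from 31.6% on chromosome 3 to 79.6% on chromosome 10.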

How the data were processed

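Peaks and regions were used as the authors deposited them, in 5 lists in build mm9. Per the submitters' processing notes, the tools included MACS2, Bowtie, Bowtie2, Picard, SAMtools and deepTools 2.5.2, with no role or order named. The way of merging replicates is not given in the sources used. The −log10 q value of each BRG1 peak is the deposited one. Other columns were not used, nor were the H2AK119ub1 and input libraries. Read depth is unknown. Widths are end minus start. Overlap meant at least 1 bp, distances are gaps between edges, and cover is the share of bases inside a region. Cover of central windows used 500 bp. Strength bins split the 18336 peaks of chromosomes 1 to 19 into 10 by rank. Calculations used Python 3.11.15, pandas 2.3.3 and scipy 1.17.1. Interval functions were checked on 1200 simulated regions, with 0 wrong. The named peaks follow a rule by width, strength, cover, neighbours and changed regions. The members and the rules were chosen with earlier results of these data known. Alternatives are given in the closing section.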

Additional observations from a re-analysis of the deposited data

How the results depend on the processing

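No paired analysis was possible because each list merges the libraries of a group, so leaving out a replicate could not be run either. Of 75 values under alternatives, 58 stayed within the interval of the reported value, 12 of them by construction, 14 moved beyond it and 3 changed which peaks were higher; the cause was not tested. Length shares were judged by an interval for 770 peaks. Joining peaks less than 200 bp apart changed nothing, since no gap is below 717 bp. The alternatives chosen after seeing the data were joining below 1000 bp (890 broad peaks), leaving out peaks that share a name, a reference of narrower peaks of at least 1000 bp and H3K27ac regions of at least 50 bp. The third leaves the broad peaks as they are, so only the reference moves. Under the others, all values for broad peaks stayed within the interval.

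The 3 changes of order were these. In the central 500 bp, H3K27ac lay in 51.3% of broad and 53.2% of narrower peaks, and P18 peaks covered 11.6% and 8.74%. At a width of 2000 bp, P18 peaks covered 9.62% of broad and 8.55% of narrower length. At this width 52.2% had a neighbour within 10 kb. At 3000 bp this was 64.8%, and 84.8% lay on H3K27ac. With a P12 −log10 q of at least 5, 335 broad peaks remained: 93.1% lay on H3K27ac, which covered 38.6% of the length, 58.8% had a P18 peak, P18 peaks covered 17.2%, and 47.5% had a neighbour. With a P18 −log10 q of at least 3, 4.94% had a P18 peak and 1.13% of the length was covered, against 3.57% and 2.28% for narrower peaks. In the central 500 bp, 16.4% met a P18 peak. Neighbours stood within 1 kb of 5.84% and within 50 kb of 83.8%, and changed regions within 10 kb of 2.86%. Against narrower peaks of at least 1000 bp, differences were smaller for the share on H3K27ac (81.2% and 74.1%) and with a P18 peak (32.6% and 28.9%). They were larger for length on H3K27ac (28.2% and 32.3%), length on P18 peaks (8.36% and 11.6%) and neighbours within 10 kb (59.4% and 36.1%).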
